A study of Mus musculus with 8 samples.

Results

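Eph receptors are receptor tyrosine kinases and ephrins are their membrane-bound ligands, and the pair signals between touching cells. The transcripts of 7 genes of this family were followed: the receptor genes Ephb2, Ephb3, Ephb4 and Epha2 and the ligand genes Efnb1, Efnb2 and Efna1. They were taken by symbol from the 24013 symbols of the expression table, and all 7 passed the filter on low values that left 11190 genes for testing. The mouse family as listed here has 14 receptor and 8 ephrin genes, so 15 relatives of these 7 were looked up as well.

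Libraries came from mouse intestinal epithelium, sorted by flow cytometry for live cells with EpCAM, without the leukocyte protein CD45 and with the red protein tdTomato. All mice were Lyz1CreER; R26R-tdT on a mixed C57/BL6 and 129 background, were 8 to 14 weeks old and had received 1 dose of 10 mg tamoxifen, which starts tdTomato in cells that use the lysozyme gene Lyz1 and leaves it on in their progeny. The first group, irradiated CD24- cells (3 libraries), holds the tdTomato cells outside the Paneth gate 5 days after radiation, which the labels call derivative cells. The radiation dose is not given in the sources used here. The second, irradiated CD24+ cells (3 libraries), is the Paneth gate of mice at the same time. The third, non-irradiated CD24+ cells (2 libraries), is the Paneth gate without radiation. CD24- cells without radiation were not analysed here, so the gate and the radiation differ together whenever the first group is set against the third. The labels do not say whether replicates are separate mice or pools, so the p-values speak for the spread among these 8 libraries alone, which may be technical.

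In the intestine the stem cells and the Paneth cells lie at the base of the crypt, and absorptive enterocytes mature as they climb the villus. Wnt signals are strongest at the crypt base, and through beta-catenin and TCF factors they turn on the receptor genes Ephb2 and Ephb3, while the ephrin-B ligands are found towards the villus. Cells with EphB receptors are repelled by cells with ephrin-B, which holds each type at its height. Mice without Ephb3 have Paneth cells scattered along the crypt, where wild-type mice keep them at the base.

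Paneth products dominated the CD24+ libraries and are a limit on every level given here. The alpha-defensins, Lyz1, Ang4 and other listed products (40 genes) made up 4.09% to 14.9% of all FPKM in irradiated CD24- cells, 76.6% to 80.9% in irradiated CD24+ cells and 80.8% to 87.4% in non-irradiated CD24+ cells. FPKM is a fragment count divided by transcript length and by library size, and it was used as deposited. In irradiated CD24- relative to irradiated CD24+ cells limma called all 16 listed villus enterocyte genes higher, among them the disaccharidase genes Treh (148 and 5.48 FPKM) and Lct (log2 fold change 4.65) and the lipoprotein gene Apob (259 and 13.4 FPKM). It called all 10 listed crypt base stem cell genes lower, among them Lgr5, the RNA-binding protein gene Msi1 (1.24 and 6.21 FPKM) and Rgmb (7.03 and 25.1 FPKM), although 2 of these 10 passed after rescaling to TPM. Of 20 Paneth genes 18 were called lower, of 8 tested tuft cell genes 6 were called lower, and of 10 goblet and 12 enteroendocrine genes 3 were called higher and 3 lower in each list. Of all genes tested, 48.6% were called higher and 7.27% lower in this comparison as deposited. The enteroendocrine genes summed to 561 to 3869 FPKM in irradiated CD24- cells, 415 to 1540 in irradiated CD24+ cells and 243 to 291 in non-irradiated CD24+ cells. Endothelial genes were checked because Ephb4 and Efnb2 also mark veins and arteries: Kdr and Emcn were at 0 in every library, Cdh5 reached 0.0111 FPKM at most, and the summed level of the 10 endothelial genes was 0.929 to 2.24 FPKM in irradiated CD24- cells, 4.24 to 4.42 in irradiated CD24+ cells and 3.0 to 3.04 in non-irradiated CD24+ cells, of which Esam, at up to 4.06 FPKM in a single library, held the largest value. All 10 stromal genes stayed under 1 FPKM in every library. The leukocyte gene Ptprc reached 0.539 FPKM at most, and the 11 leukocyte genes summed to 5.27 to 8.47 FPKM in irradiated CD24- cells, 13.5 to 16.0 in irradiated CD24+ cells and 11.4 to 13.1 in non-irradiated CD24+ cells. It includes Lcp1, called lower in irradiated CD24- cells (3.23 and 13.7 FPKM in irradiated CD24- and irradiated CD24+ cells), while Itgam, the other leukocyte gene tested, was called higher (2.67 and 0.581 FPKM, limma adjusted p = 0.000124). The part of these other cells in the results was not tested.

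The promoters of 4 members are shown. Ephb3 and Ephb2 are sister receptors, of which only Ephb3 passed between irradiated CD24- and irradiated CD24+ cells as deposited. Efnb1 and Epha2 are the members whose windows hold a core motif of the Notch factor RBPJ or of the Wnt factor TCF. Each window runs from 250 bases before the annotated start of transcription to 50 bases after it, in RefSeq on GRCm38.p6, written 5′ to 3′ on the strand of the gene. Capitals mark every match, on either strand, to the TCF core CTTTGA, the RBPJ core TGGGAA or the GC box GGGCGG. The motifs do not overlap one another in these windows.
Ephb3 (chr16:21204545-21204844, plus strand): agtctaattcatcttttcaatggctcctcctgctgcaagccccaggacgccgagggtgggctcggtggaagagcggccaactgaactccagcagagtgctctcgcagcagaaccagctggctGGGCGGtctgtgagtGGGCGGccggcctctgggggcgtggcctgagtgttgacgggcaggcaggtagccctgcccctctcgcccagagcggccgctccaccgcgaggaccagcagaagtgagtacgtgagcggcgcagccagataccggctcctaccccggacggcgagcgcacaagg
Ephb2 (chr4:136835963-136836262, minus strand): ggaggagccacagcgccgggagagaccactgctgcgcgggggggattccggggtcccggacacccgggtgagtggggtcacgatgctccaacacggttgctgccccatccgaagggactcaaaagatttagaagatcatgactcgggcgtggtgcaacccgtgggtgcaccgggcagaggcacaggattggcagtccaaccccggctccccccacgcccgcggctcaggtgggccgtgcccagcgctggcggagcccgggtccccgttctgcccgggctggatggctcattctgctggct
Efnb1 (chrX:99135811-99136110, plus strand): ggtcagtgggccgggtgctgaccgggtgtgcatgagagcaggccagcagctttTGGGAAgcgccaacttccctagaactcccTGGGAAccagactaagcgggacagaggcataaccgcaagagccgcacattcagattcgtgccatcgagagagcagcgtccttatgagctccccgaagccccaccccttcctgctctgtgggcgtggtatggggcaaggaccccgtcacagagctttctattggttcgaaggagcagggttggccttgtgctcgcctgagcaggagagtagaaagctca
Epha2 (chr4:141300971-141301270, plus strand): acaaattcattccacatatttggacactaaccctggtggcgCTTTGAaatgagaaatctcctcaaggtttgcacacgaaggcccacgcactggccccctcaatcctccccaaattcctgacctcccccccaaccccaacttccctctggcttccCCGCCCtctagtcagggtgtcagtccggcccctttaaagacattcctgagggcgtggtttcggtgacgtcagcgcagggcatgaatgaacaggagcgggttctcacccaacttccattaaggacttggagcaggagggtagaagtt
The Ephb3 window holds 2 GC boxes, whose first bases lie 128 and 113 bases before the start, and the Ephb2 window holds none of the 3 motifs. The Efnb1 window holds 2 RBPJ cores, 197 and 168 bases before the start. In the Epha2 window a TCF core lies 209 bases and a GC box 96 bases before the start. Among all 32851 RefSeq promoter windows of this length, 16.0% hold the TCF core, 25.6% the RBPJ core and 35.7% the GC box, so such matches are common. All 7 members had a window (8 in all, since Efna1 has 2), and 1 member held a TCF core, 1 an RBPJ core and 5 a GC box. These matches are letters only, and a window without them says nothing about control from elsewhere.

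**Figure D1:**
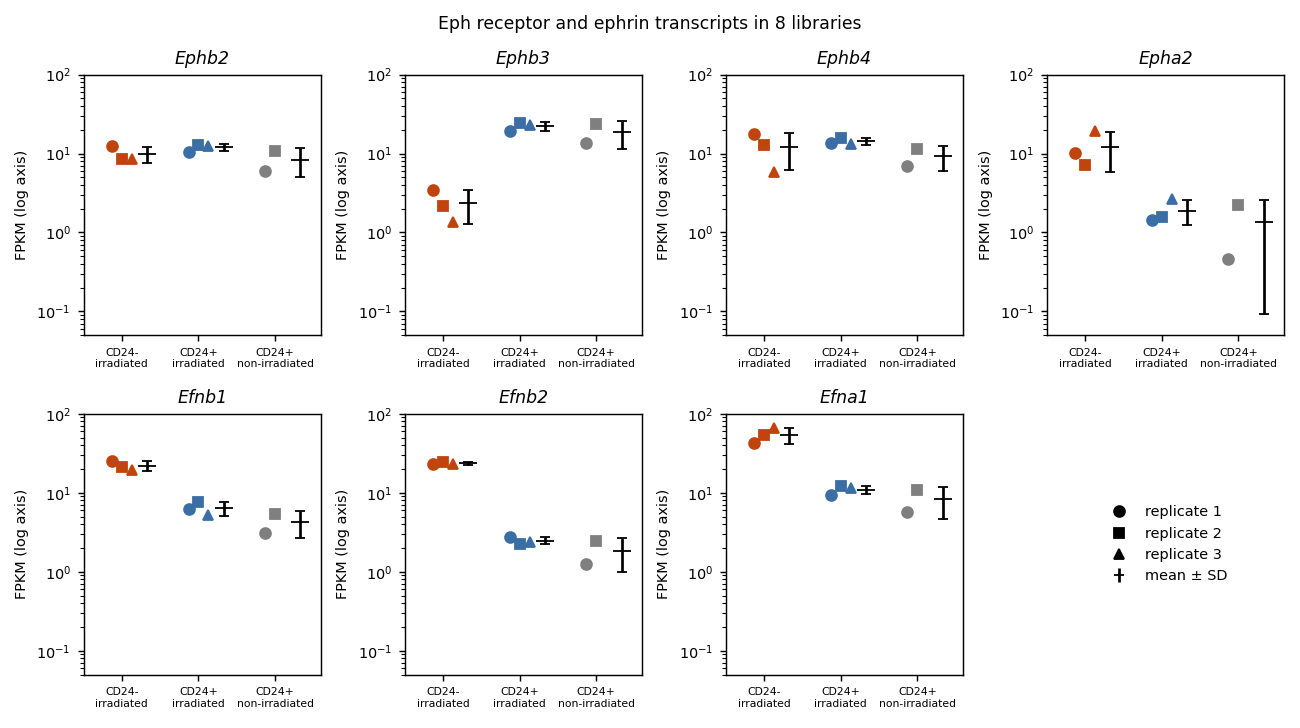
Level of each of the 7 genes in each library, in FPKM on a log axis. Each point is a library (shape gives the replicate number), and the bar beside it is the mean ± SD. The 3 irradiated CD24- libraries lie below every CD24+ library for Ephb3 and above every CD24+ library for Epha2, Efnb1, Efnb2 and Efna1. For Ephb2 and Ephb4 the range of the CD24- libraries overlaps that of each CD24+ group.

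The comparison of irradiated CD24- with irradiated CD24+ cells asks how tdTomato cells outside the Paneth gate differ from those inside it after radiation. The ligand genes Efnb1, Efnb2 and Efna1 and the receptor gene Epha2 were higher in CD24- cells, Ephb3 was lower, and Ephb2 and Ephb4 did not pass the test. That is 4 members called higher and 1 lower, where limma called 55.9% of all 11190 genes, 48.6% higher and 7.27% lower (Benjamini-Hochberg adjusted p under 0.05). The groups of those 5 members did not overlap, and the same was true of 59.1% of all genes on the higher and 9.31% on the lower side. The median log2 fold change was 1.65 over the members and 0.51 over all genes. The balance of calls depends on the scaling between libraries: all genes split into 32.4% higher and 24.4% lower with median-of-ratios scaling, 25% and 30.4% with quantile normalization, 22.4% and 31.8% after scaling to the FPKM outside Paneth products, and 89.4% and 2.32% after rescaling to TPM. The members split into 4 higher and 3 lower under the first 3 of these and into 6 higher and 1 lower as TPM, with Ephb2 and Ephb4 as the genes added. Each member's fold change in this comparison is therefore also given after subtracting that of the median gene. For Ephb2 and Ephb4 the result was -0.79 and -0.84.

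Ephb3, the receptor that keeps Paneth cells at the crypt base, was lower in CD24- cells. It stood at 3.49, 2.18 and 1.36 FPKM in irradiated CD24- replicates 1, 2 and 3, against 19.1, 24.2 and 23.1 FPKM in irradiated CD24+ replicates 1, 2 and 3 and 13.6 and 23.9 FPKM in non-irradiated CD24+ replicates 1 and 2. Every CD24- library lay far below every CD24+ library. The group means were 2.34 ± 1.08 (SD, n = 3) in irradiated CD24- and 22.1 ± 2.68 FPKM (SD, n = 3) in irradiated CD24+ cells. On the log2 scale the difference was -2.84 ± 0.27 (SE) and, less the median gene, -3.35 (limma adjusted p = 1.34e-05). Against the non-irradiated CD24+ mean of 18.8 ± 7.31 FPKM (SD, n = 2) it fell by 2.56 ± 0.30 (SE) on the log2 scale (limma adjusted p = 4.33e-05). In the order of expression within a library, Ephb3 lay above 10.1% to 22.9% of tested genes in irradiated CD24- cells, 83.7% to 85.5% in irradiated CD24+ cells and 85.1% to 86.1% in non-irradiated CD24+ cells.

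The Ephb3 that was left in CD24- cells differed between their libraries. It was 15.8%, 9.82% and 6.13% of the irradiated CD24+ mean in replicates 1, 2 and 3. The Paneth gene Lyz1 was 7.60%, 2.40% and 1.13% of its own irradiated CD24+ mean in the same libraries, the sort marker gene Cd24a 16.8%, 11.1% and 5.35%, and the stem cell gene Lgr5 12.9%, 8.58% and 3.61%. All 4 genes were highest in replicate 1 and lowest in replicate 3. Another Paneth gene, Ang4, was 7.54%, 1.60% and 1.75% of its irradiated CD24+ mean, highest in replicate 1 but lowest in replicate 2. The part of remaining CD24+ cells in these values was not tested. Since these are bulk samples, fewer cells of a type and less RNA per cell cannot be told apart, here or for any other member.

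Ephb2, the receptor spread more widely along the crypt, did not pass as deposited, although by rank it too lay lower in CD24- cells. It stood at 12.3, 8.56 and 8.57 FPKM in irradiated CD24- replicates 1, 2 and 3, against 10.6, 13 and 12.3 FPKM in irradiated CD24+ replicates 1, 2 and 3 and 6.02 and 10.7 FPKM in non-irradiated CD24+ replicates 1 and 2. The groups overlap. The log2 fold change of irradiated CD24- over irradiated CD24+ cells was -0.28 ± 0.23 (SE, limma adjusted p = 0.333) as deposited, and its sign depends on the scaling between libraries. It was -0.79, -1.0 and -1.02 after median-of-ratios scaling, quantile normalization and scaling to the FPKM outside Paneth products (adjusted p = 0.000755, 0.00025 and 0.00161), and 0.89 after rescaling to TPM (adjusted p = 0.00514). By rank, which no such scaling factor alters, Ephb2 lay above 48.1% to 55.4% of tested genes in irradiated CD24- cells, 70.3% to 72.8% in irradiated CD24+ cells and 67.4% to 69.2% in non-irradiated CD24+ cells.

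The ratio of the sister receptors within a library does not depend on a single scaling factor per library either. It was not computed after quantile normalization, which is no such factor. Ephb3 over Ephb2 was 0.284, 0.254 and 0.159 in irradiated CD24- replicates 1, 2 and 3, against 1.80, 1.86 and 1.88 in irradiated CD24+ replicates 1, 2 and 3 and 2.26 and 2.24 in non-irradiated CD24+ replicates 1 and 2. The CD24+ gate thus held more Ephb3 than Ephb2 transcript per length in each of its 5 libraries, and the CD24- gate less in each of its 3. No test was made of this ratio.

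Ephb4, which pairs mainly with ephrin-B2 and is best known from veins, behaved like Ephb2 in that its CD24- range overlaps each CD24+ group. It stood at 17.9, 12.8 and 5.86 FPKM in irradiated CD24- replicates 1, 2 and 3, against 13.6, 15.9 and 13.3 FPKM in irradiated CD24+ replicates 1, 2 and 3 and 6.99 and 11.4 FPKM in non-irradiated CD24+ replicates 1 and 2. The CD24- libraries span the widest range, with replicate 1 above and replicate 3 below all 5 CD24+ libraries. Irradiated CD24- over irradiated CD24+ cells gave a log2 fold change of -0.33 ± 0.33 (SE, limma adjusted p = 0.423), which was 0.09 without irradiated CD24- replicate 3, -0.84, -1.08 and -1.07 after median-of-ratios, quantile and non-Paneth scaling (adjusted p = 0.0325, 0.00973 and 0.0167) and 0.85 after rescaling to TPM (adjusted p = 0.0261). By rank Ephb4 lay above 38.8% to 65.3% of tested genes in irradiated CD24- cells, 73.1% to 77.7% in irradiated CD24+ cells and 70.8% to 71.4% in non-irradiated CD24+ cells.

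Epha2, a receptor of epithelial cell contacts whose main partner is ephrin-A1, went the other way. It stood at 10.2, 7.14 and 19.4 FPKM in irradiated CD24- replicates 1, 2 and 3, against 1.44, 1.59 and 2.64 FPKM in irradiated CD24+ replicates 1, 2 and 3 and 0.460 and 2.23 FPKM in non-irradiated CD24+ replicates 1 and 2. Each CD24- library lay above each CD24+ library, and replicate 3 was the highest in both irradiated gates. The means were 12.2 ± 6.38 and 1.89 ± 0.654 FPKM in irradiated CD24- and irradiated CD24+ cells (SD, n = 3 each). The log2 difference was 2.11 ± 0.36 (SE) and, less the median gene, 1.60 (limma adjusted p = 0.000503). The lowest value, in non-irradiated CD24+ replicate 1, corresponds to about 81 reads.

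The ephrin-B genes encode the transmembrane ligands of the EphB receptors and were both higher in CD24- cells. Efnb2 stood at 22.9, 24.7 and 23.5 FPKM in irradiated CD24- replicates 1, 2 and 3, against 2.78, 2.28 and 2.40 FPKM in irradiated CD24+ replicates 1, 2 and 3 and 1.25 and 2.43 FPKM in non-irradiated CD24+ replicates 1 and 2. The 3 CD24- libraries were nearly alike and the groups were far apart. Efnb2 had the largest positive log2 fold change among the members, 2.83 ± 0.19 (SE) and 2.32 less the median gene (limma adjusted p = 5.58e-06), from means of 23.7 ± 0.875 and 2.49 ± 0.261 FPKM in irradiated CD24- and irradiated CD24+ cells (SD, n = 3 each).

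Efnb1, the ephrin-B gene that beta-catenin and TCF hold down in intestinal cells, stood at 25.3, 21.4 and 19.5 FPKM in irradiated CD24- replicates 1, 2 and 3, against 6.27, 7.67 and 5.20 FPKM in irradiated CD24+ replicates 1, 2 and 3 and 3.13 and 5.41 FPKM in non-irradiated CD24+ replicates 1 and 2. The CD24- libraries again lay above all others. Its log2 fold change was 1.65 ± 0.22 (SE) and 1.14 less the median gene (limma adjusted p = 0.000107). Efnb2 over Efnb1 was 0.907, 1.15 and 1.20 in irradiated CD24- replicates 1, 2 and 3, against 0.443, 0.297 and 0.462 in irradiated CD24+ replicates 1, 2 and 3 and 0.399 and 0.448 in non-irradiated CD24+ replicates 1 and 2. The ephrin-B pair was therefore close to even in CD24- cells and led by Efnb1 in each CD24+ library.

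Efna1, the membrane-anchored ligand of EphA2 and other EphA receptors, was the most abundant member in CD24- cells. It stood at 42.2, 53.7 and 66.9 FPKM in irradiated CD24- replicates 1, 2 and 3, against 9.46, 12.1 and 11.4 FPKM in irradiated CD24+ replicates 1, 2 and 3 and 5.76 and 10.9 FPKM in non-irradiated CD24+ replicates 1 and 2. No CD24- library overlapped a CD24+ library. The log2 fold change was 2.19 ± 0.26 (SE) and 1.68 less the median gene (limma adjusted p = 4.45e-05). The calls of Ephb3, Epha2, Efnb1, Efnb2 and Efna1 kept their direction and passed the test in this comparison under every alternative run, with each library left out in turn and with replicate number as a block included.

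**Figure D2:**
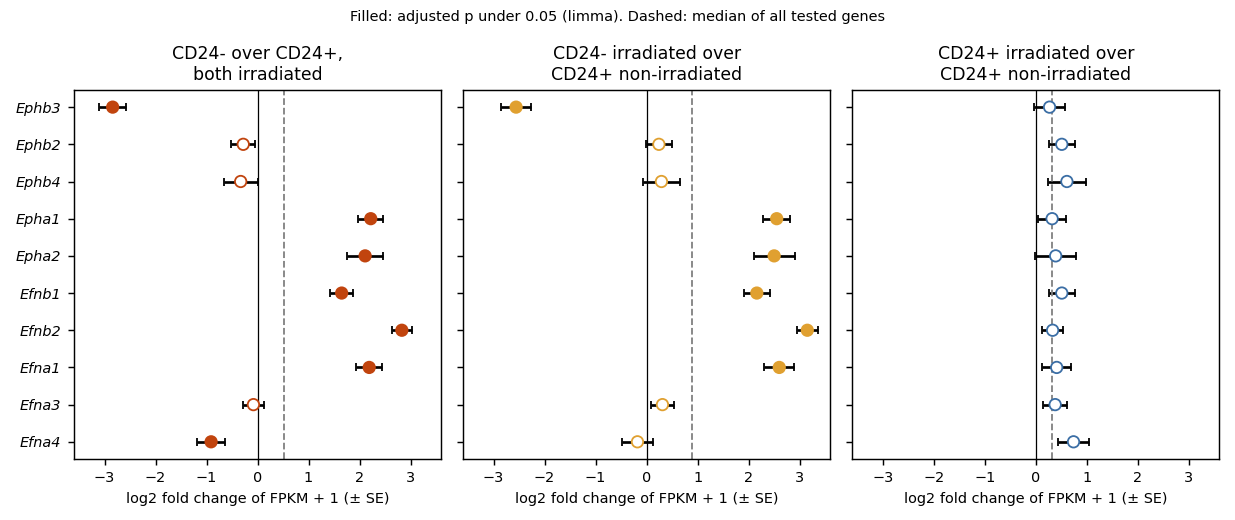
Log2 fold change of FPKM + 1 with its standard error for the 10 tested family genes in 3 comparisons. Filled points passed an adjusted p of 0.05 and the dashed line is the median of all 11190 genes (0.51, 0.88 and 0.32 from left to right). Ephb3 and the ligand genes Efnb1, Efnb2 and Efna1 lie on opposite sides of that line in both comparisons of CD24- cells, and no gene passed between the CD24+ groups.

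Among the 15 other family genes, 3 passed the filter on low values and 12 did not. Epha1, a receptor of epithelial tissues, stood at 24.6, 24.6 and 24.2 FPKM in irradiated CD24- replicates 1, 2 and 3, against 4.47, 4.73 and 4.21 FPKM in irradiated CD24+ replicates 1, 2 and 3 and 2.05 and 5.25 FPKM in non-irradiated CD24+ replicates 1 and 2. It was thus the most abundant Eph receptor of the CD24- gate, with a log2 fold change of 2.22 ± 0.24 (SE, limma adjusted p = 2.75e-05). The library kit keeps no strand, and exons of Epha1 share 236 bases with those of Zyx on the opposite strand in GENCODE M21, so reads from that stretch cannot be assigned.

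The ephrin-A genes Efna1, Efna3 and Efna4 are consecutive protein-coding genes on chromosome 3 (RefSeq, GRCm38.p6), yet their values ran apart. Efna4 stood at 4.90, 3.86 and 1.69 FPKM in irradiated CD24- replicates 1, 2 and 3, against 7.49, 7.68 and 6.01 FPKM in irradiated CD24+ replicates 1, 2 and 3 and 2.95 and 4.85 FPKM in non-irradiated CD24+ replicates 1 and 2. It lay below the irradiated CD24+ libraries in each CD24- library but overlapped the non-irradiated ones. Its log2 fold change between the irradiated gates was -0.91 ± 0.28 (SE, limma adjusted p = 0.0162), which did not pass without a filter on low values (adjusted p = 0.0594), was -0.58 without irradiated CD24- replicate 3 (adjusted p = 0.0498) and was 0.12 after rescaling to TPM (adjusted p = 0.69). Efna3 ranged from 1.25 to 2.36 FPKM in irradiated CD24- cells, 1.37 to 2.19 FPKM in irradiated CD24+ cells and 0.887 to 1.47 FPKM in non-irradiated CD24+ cells (log2 fold change -0.08 ± 0.20 between the irradiated gates, limma adjusted p = 0.763), but it passed in opposite directions as TPM (0.75, adjusted p = 0.00404) and after non-Paneth scaling (-0.58, adjusted p = 0.0318). Efna1 over Efna4 was 8.62, 13.9 and 39.6 in irradiated CD24- replicates 1, 2 and 3, against 1.26, 1.58 and 1.89 in irradiated CD24+ replicates 1, 2 and 3 and 1.95 and 2.25 in non-irradiated CD24+ replicates 1 and 2. Exons of Efna3 and Efna4 share 344 and 168 bases with noncoding genes on the opposite strand in GENCODE M21, and those of Ephb4 share 33 bases with Zan.

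The other 12 relatives were low. Epha6, Epha8, Epha10, Ephb1 and Efna5 were listed at 0 in all 8 libraries. Epha3, Epha4, Epha5, Epha7, Ephb6, Efna2 and Efnb3 stayed below 1 FPKM throughout, with Epha4 the highest of them at 0.764 FPKM in irradiated CD24+ replicate 1.

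The makeup of the receptor transcripts was read from each gene's share of the summed FPKM of all 14 receptor genes in a library. A single scaling factor per library cannot move this share. Quantile normalization can, and shares were not computed after it. Ephb3 held 3.74% ± 1.40 (SD, n = 3) in irradiated CD24- cells, against 39.8% ± 1.51 (SD, n = 3) in irradiated and 45.3% ± 1.33 (SD, n = 2) in non-irradiated CD24+ cells. Ephb3 was the most abundant receptor of both CD24+ groups. EphA receptors together held 51.3%, 57.7% and 73.7% of receptor FPKM in irradiated CD24- replicates 1, 2 and 3, against 13.5%, 11.9% and 13.4% in irradiated CD24+ replicates 1, 2 and 3 and 9.54% and 14.6% in non-irradiated CD24+ replicates 1 and 2. Ephb2 held 14.3% to 17.8% in irradiated CD24- cells, 21.2% to 21.8% in irradiated and 19.8% to 20.5% in non-irradiated CD24+ cells. The summed receptor level itself was 55.7 to 69.2 FPKM in irradiated CD24- cells, 50.2 to 60.4 in irradiated and 29.4 to 54.0 in non-irradiated CD24+ cells.

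The ephrin transcripts differed in summed amount. Their summed level was 97.9 to 113 FPKM in irradiated CD24- cells, 26.6 to 32.0 in irradiated CD24+ cells and 14.0 to 25.2 in non-irradiated CD24+ cells. All ephrins over all receptors came to 1.42, 1.89 and 1.88 in irradiated CD24- replicates 1, 2 and 3, against 0.564, 0.530 and 0.473 in irradiated CD24+ replicates 1, 2 and 3 and 0.477 and 0.467 in non-irradiated CD24+ replicates 1 and 2. Ligand transcripts outweighed receptor transcripts in each CD24- library and the reverse held in each CD24+ library. Within the ligands, Efna4 held 1.5% to 5.00% of ephrin FPKM in irradiated CD24- cells, 22.6% to 26.5% in irradiated and 19.2% to 21.0% in non-irradiated CD24+ cells, while Efnb1 held 17.2% to 25.8% in irradiated CD24- cells, 19.6% to 24.0% in irradiated and 21.5% to 22.3% in non-irradiated CD24+ cells.

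The B-class pair shows the turn most plainly. Ephb2, Ephb3 and Ephb4 together, over Efnb1 and Efnb2 together, came to 0.699, 0.512 and 0.367 in irradiated CD24- replicates 1, 2 and 3, against 4.79, 5.35 and 6.40 in irradiated CD24+ replicates 1, 2 and 3 and 6.08 and 5.87 in non-irradiated CD24+ replicates 1 and 2. The CD24- libraries held less receptor than ligand transcript and all 5 CD24+ libraries held several times more. No test was made of these sums and ratios, because the members were chosen with results known.

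**Figure D3:**
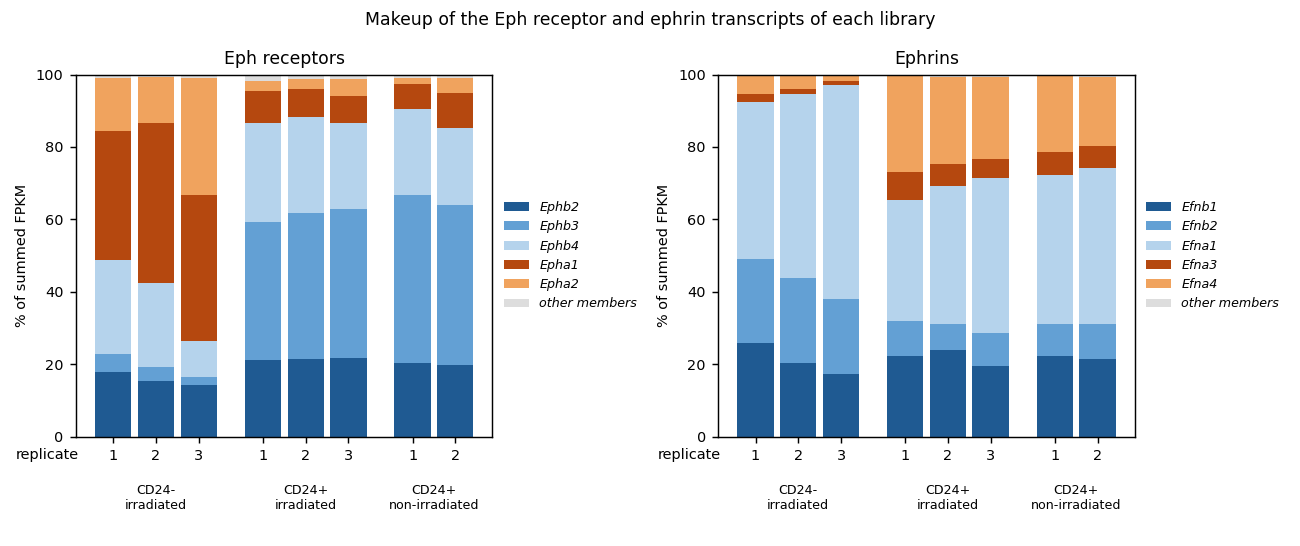
Share of each gene in the summed FPKM of the 14 Eph receptor genes (left) and the 8 ephrin genes (right), in percent, for each of the 8 libraries. Ephb3 takes 2.26% to 5.04% of receptor FPKM in irradiated CD24- libraries and 38.1% to 46.2% in the CD24+ libraries, while Epha1 and Epha2 take larger shares in irradiated CD24- than in CD24+ libraries.

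After radiation the Paneth gate itself showed no member past the threshold. In irradiated against non-irradiated CD24+ cells limma called 0% of the 11190 genes and 0 of 7 members. At an unadjusted p under 0.05 there were 1424 of the 11190 genes and 0 of 7 members, too few members to set them apart from all genes. Of the 3 tested relatives, Efna4 alone was under it (limma unadjusted p = 0.0376, adjusted p = 0.348), with a log2 fold change of 0.74 ± 0.31 (SE). The members' log2 fold changes lay between 0.27 ± 0.30 (SE, Ephb3) and 0.61 ± 0.37 (SE, Ephb4), with a median of 0.41 beside 0.32 for all genes. Ephb2 averaged 12.0 ± 1.22 FPKM (SD, n = 3) in irradiated CD24+ cells, against 8.36 ± 3.31 FPKM (SD, n = 2) without radiation, a log2 fold change of 0.51 ± 0.26 (SE, limma adjusted p = 0.348). Ephb4 lay higher in every irradiated than in every non-irradiated CD24+ library, as 34.2% of all tested genes did.

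These values rest on a control pair that is unlike itself. Non-irradiated CD24+ replicate 1 had the lower value of the pair for each of the 7 members, for example 0.460 against 2.23 FPKM for Epha2 and 6.02 against 10.7 FPKM for Ephb2, and it also had the highest Paneth product share (87.4%) and the fewest genes at 1 FPKM or more (9362, against 10293 to 10697 in the other libraries). Without it the log2 fold change of Ephb3 was -0.11 and that of Ephb2 0.14. Without replicate 2, which keeps replicate 1 as the lone control, 4 members passed (Ephb2, Efnb1, Efnb2 and Efna1, with limma adjusted p from 0.0236 to 0.0359), where 46.4% of the 11156 genes then tested were called higher. Ephb3 over Ephb2, which is free of library scale, was 1.80 to 1.88 in irradiated and 2.24 to 2.26 in non-irradiated CD24+ cells. How often the ratios of other gene pairs part in this way was not examined, and no test was made of this difference.

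Irradiated CD24- against non-irradiated CD24+ cells gave the same 5 calls. Epha2, Efnb1, Efnb2 and Efna1 were called higher with log2 fold changes of 2.50 ± 0.40, 2.16 ± 0.25, 3.15 ± 0.21 and 2.6 ± 0.29 (SE), beside a median of 0.88 for all genes, and Ephb3 was called lower. In that comparison limma called 70.7% of all genes, 65.7% higher and 4.99% lower, and 70.1% and 6.17% did not overlap on the higher and lower side. That split was 29.6% and 22.0% with median-of-ratios scaling, 24.5% and 25.8% with quantile normalization, 24.1% and 20.5% after non-Paneth scaling and 93.2% and 1.89% as TPM. It shares the CD24- libraries with the comparison of the irradiated gates, so these calls are not separate evidence. Ephb2 and Ephb4 stood at log2 fold changes of 0.24 ± 0.26 and 0.29 ± 0.37 (SE, limma adjusted p = 0.425 and 0.493), and after median-of-ratios scaling at -0.69 and -0.65 (adjusted p = 0.00277 and 0.116).

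**Figure D4:**
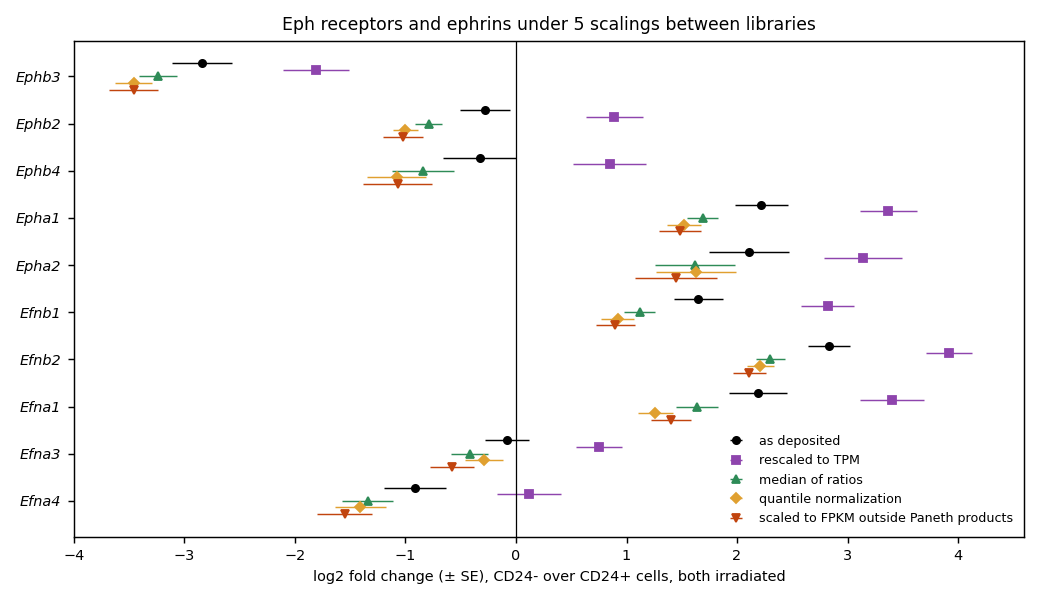
Log2 fold change with its standard error of 10 family genes in irradiated CD24- over irradiated CD24+ cells, as deposited and under 4 other scalings between libraries. Ephb3 stays left of 0 and Epha1, Epha2, Efnb1, Efnb2 and Efna1 stay right of 0 under all 5, while Ephb2, Ephb4, Efna3 and Efna4 change side when libraries are rescaled to TPM.

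Genes of the Wnt pathway, which controls EphB transcription in this tissue, were examined as a list of 17, of which 15 were tested. Lgr5 is also on the crypt base list, so the counts of the 2 lists are not separate results. Between irradiated CD24- and irradiated CD24+ cells 11 were called lower, 3 higher and 1 was not called, where 7.27% of all genes were called lower and 48.6% higher. The median log2 fold change of the list was -1.03 beside 0.51 for all genes. Lgr5, a stem cell receptor that amplifies Wnt signals, averaged 0.833 FPKM in irradiated CD24- and 9.96 FPKM in irradiated CD24+ cells (log2 fold change -2.61 ± 0.21). Nkd1, a target and feedback inhibitor, averaged 0.191 and 4.21 FPKM (-2.13 ± 0.18), and Tcf7, a TCF family factor, 1.04 and 4.70 FPKM (-1.49 ± 0.18, SE) in the same order. These 3 passed under all 5 scalings. The genes called higher were Ctnnb1, the beta-catenin gene, the target Sp5 and Tcf7l2, the main TCF factor of the intestine, with log2 fold changes of 0.92, 0.71 and 0.67, and after scaling to the FPKM outside Paneth products none of these 3 passed (adjusted p = 0.600, 0.419 and 0.962). Quantile normalization turned Ctnnb1 to -0.46. The list had 0 higher and 11 lower calls after that non-Paneth scaling, 1 and 11 with medians of ratios, 1 and 13 with quantiles and 4 and 5 as TPM, where 31.8%, 24.4%, 30.4% and 2.32% of all genes were called lower under those 4 scalings.

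Genes that act downstream of Eph and ephrin at the membrane and on the cytoskeleton lay near the background of all genes as a list. Of 38 listed, 34 were tested, and limma called 19 of them higher and 3 lower between the irradiated gates, where 48.6% of all genes were called higher and 7.27% lower, with a median log2 fold change of 0.59 beside 0.51 for all genes. The small GTPase gene Cdc42 averaged 185 and 54.7 FPKM in irradiated CD24- and irradiated CD24+ cells (log2 fold change 1.74 ± 0.24), and Vav2, an exchange factor that Eph receptors recruit, 11.9 and 3.64 FPKM (1.48 ± 0.21). Rgs3, which binds ephrin-B tails, averaged 5.85 and 2.07 FPKM in irradiated CD24- and irradiated CD24+ cells (1.16 ± 0.18), and the kinase gene Pak1 had a log2 fold change of 1.28 ± 0.21 (SE). Those 4 passed under all 5 scalings. The 3 called lower were the Src family kinase gene Fyn (0.425 and 1.79 FPKM), the Rac exchange factor gene Tiam1 (1.01 and 2.41 FPKM) and Vav3 (0.717 and 1.49 FPKM), in irradiated CD24- and irradiated CD24+ cells. After rescaling to TPM none of these 3 passed and Vav3 stood at a log2 fold change of 0.13, and Fyn did not pass after quantile normalization either (adjusted p = 0.0533). The list's balance changed with the scaling, as did that of all genes given above: 7 were called higher and 9 lower after scaling to the FPKM outside Paneth products, 6 and 7 after quantile normalization, 14 and 4 with medians of ratios and 31 and 0 as TPM.

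**Figure D5:**
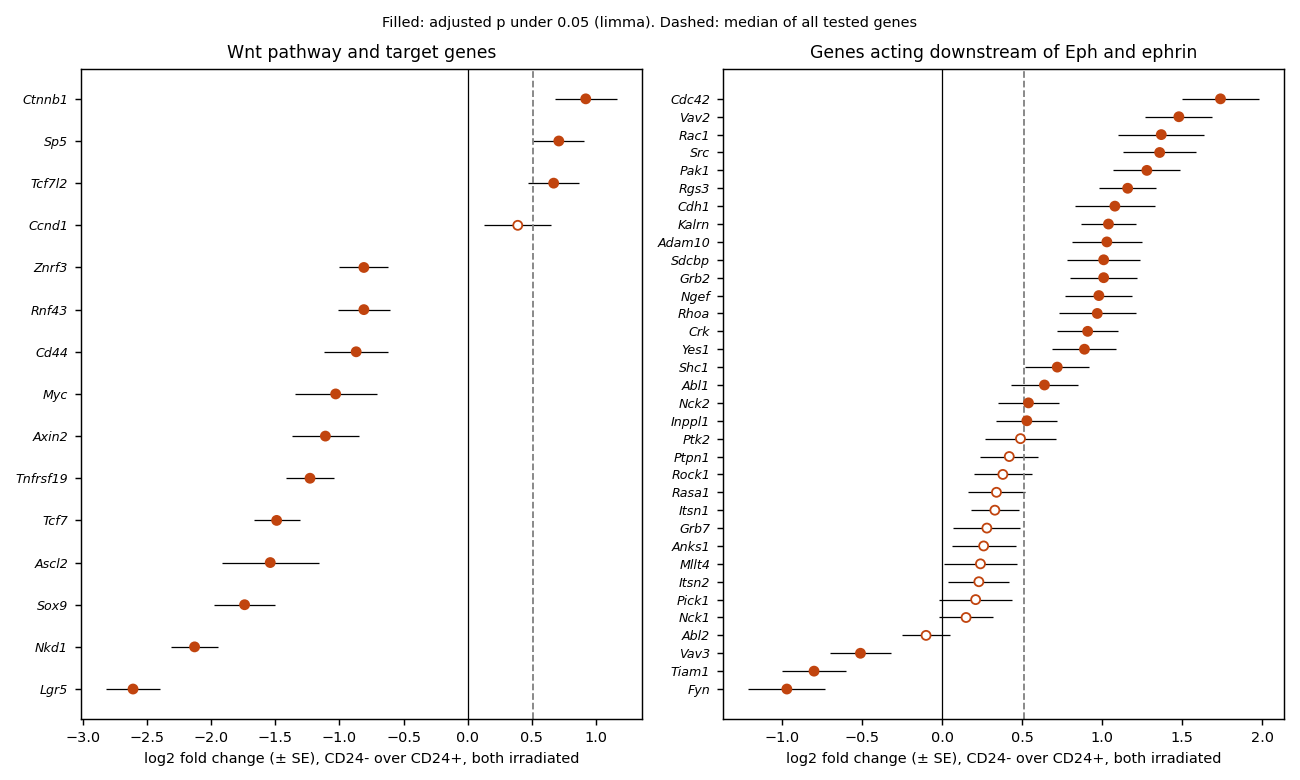
Log2 fold change with its standard error in irradiated CD24- over irradiated CD24+ cells for the 15 tested Wnt pathway genes (left) and the 34 tested genes downstream of Eph and ephrin (right). Filled points passed an adjusted p of 0.05 and the dashed line is the median of all genes. Of the Wnt genes 11 lie left of 0 and filled, while 19 of the downstream genes are filled to the right of 0 and 3 to the left.

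To place each member among all genes, the genes with the most similar profile were found by the root-mean-square difference of mean-centred log2(FPKM + 1) over the 8 libraries, as a description with no test. For Ephb3 these were Syne4 (0.09), Lgr5 (0.21) and Thbs1 (0.22). For Ephb2 they were Mum1 (0.06), Pitrm1 (0.07) and Sh3bp4 (0.08), and for Ephb4 Mgme1 (0.12), Fbxo5 (0.13) and Gemin4 (0.13). Epha2 was nearest to Hbegf (0.19), Spns2 (0.20) and Slc35d2 (0.20), at larger distances than most members. The ligands were nearest to Ptprf (0.09), Tbc1d13 (0.10) and Cldn15 (0.11) for Efnb1, Cdkn2b (0.07), Gnpda1 (0.09) and Mgst3 (0.10) for Efnb2, and Pgm2 (0.10) and Cdhr5 (0.11) for Efna1. Within the family the smallest distances were those of Efna1 to Epha1 and of Ephb2 to Efna3, both 0.20, while Ephb2 and Ephb4 stood 0.30 apart and Ephb3 was at least 1.05 from every other family gene tested.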

How the data were processed

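RNA libraries (TruSeq RNA v2 per the labels' protocols, a kit that keeps no strand) were sequenced from 8 sorted samples. The authors' deposited table gives FPKM per gene and library, and TopHat2 2.1.0, StringTie 1.3.4 and the build mm9 are named in the submitters' processing notes. No annotation or filter is stated there. How reads shared by near-identical genes such as the defensins were counted is unknown, so the Paneth share is approximate.

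The 24015 entries were reduced to 24013 symbols by summing 2 repeats. Genes at 1 FPKM or more in at least 2 libraries (11190) were kept and log2(FPKM + 1) values of all 8 libraries were fitted with limma 3.58.1 in R 4.3.3 (group means, mean-variance trend, no block), with Benjamini-Hochberg adjustment over all genes at 0.05. With a pseudocount of 1, the change of genes near 1 FPKM is understated. A count test was not used because the values are not counts. SE is limma's moderated standard error. The procedure was tested on simulated data in which few genes changed and the makeup of the libraries did not. That test does not cover the scaling between libraries. The members and the 13 gene lists were chosen with earlier results of these data known. The text names all 7 members, each relative above the filter, by smallest p and per direction up to 4 called genes of the downstream list and up to 3 of the Wnt, crypt base and villus lists, up to 2 of other marker lists except where values at 0 are given, and the 3 genes of most similar profile, of which 1 is not reported here.

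Across genes, the residuals of same-numbered irradiated CD24- and irradiated CD24+ libraries had correlations of r = 0.366, 0.231 and 0.402. Libraries of unlike number had r = -0.381 to 0.0518. With 3 libraries per group these correlations depend on one another, so they cannot decide whether the numbers pair samples. The labels do not say what a number marks. A fit with replicate number as a block changed no member's call. The other alternatives were a pseudocount of 0.1, filters of none or 5 FPKM, TPM, median-of-ratios or quantile scaling, scaling to the FPKM outside Paneth products, the 2 compared groups alone, array weights, a robust fit and each library left out. Read totals were approximated, from the steps between low values of 5378 genes with 1 GENCODE M21 transcript, at 34800000 to 45300000 per library. Promoters came from RefSeq GRCm38.p6, another build than mm9, and no coordinate was carried between them. Figures used matplotlib 3.10.9.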

Additional observations from a re-analysis of the deposited data

How the results depend on the processing

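Over the alternatives run, the 5 member calls in both comparisons of CD24- cells kept their direction and side of the threshold, and the count of members called (5) was 5 without each library in turn between the irradiated gates and 5 to 6 against non-irradiated CD24+ cells. Between the irradiated gates it was 7 under each of TPM, median-of-ratios, quantile and non-Paneth scaling and 6 with array weights, where Ephb2 passed at -0.45 (limma adjusted p = 0.00328). Against non-irradiated CD24+ cells it was 7 as TPM and 6 under each of the other 3 scalings. Between the irradiated gates 6252 genes were called as deposited, 10260 as TPM and 5064 to 7055 without each library. Against non-irradiated CD24+ cells 7907 were called, 4990 after scaling to the FPKM outside Paneth products, 4489 with that scaling and a replicate block (a combination chosen after seeing the data), and 6109 to 8748 without each library. Between the CD24+ groups 0 were called as deposited (limma, 1424 at an unadjusted p under 0.05). That count was 1 with no filter, 3 with median-of-ratios scaling, 4 with quantile normalization, 1 with non-Paneth scaling, 5 with the 2 groups alone, 92 with a replicate block, 9 with block and non-Paneth scaling, and 0 to 5185 without each library, with 0 to 4 members among them. The numbers of the CD24+ groups pair only 2 libraries, so that block is no evidence of pairing there. Where 1 non-irradiated library was left, its spread was taken from the other groups. The cause of these differences was not tested.

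Among the tested family genes, signs that turned, as log2 fold changes, were all of values that did not pass as deposited, apart from Efna4. Between the CD24+ groups Ephb3 was -0.17, -0.11 and -0.02 with median-of-ratios, quantile and non-Paneth scaling and -0.11 without non-irradiated replicate 1 (0.66 without replicate 2), Efna1 was -0.01 and Epha1 -0.03 with medians of ratios, and Epha1 and Epha2 were -0.19 and -0.18 without that library (0.84 and 0.96 without replicate 2). Between the irradiated gates, TPM gave 0.89 for Ephb2, 0.85 for Ephb4, 0.75 for Efna3 and 0.12 for Efna4. Leaving out irradiated CD24- replicate 3 gave 0.09 for Ephb4 and 0.05 for Efna3 (-0.64 and -0.24 without replicate 1), and leaving out irradiated CD24+ replicate 1 gave 0.01 for Efna3. Against non-irradiated CD24+ cells, median-of-ratios, quantile and non-Paneth scaling, and the last with a replicate block, gave -0.69, -0.83, -0.77 and -0.73 for Ephb2, -0.65, -0.80, -0.73 and -0.50 for Ephb4 and -0.29, -0.10, -0.34 and -0.21 for Efna3. There Ephb2 was -0.13 without non-irradiated replicate 1 and 0.60 without replicate 2, Ephb4 -0.03 without non-irradiated replicate 1 or irradiated CD24- replicate 1 and 0.70 without irradiated CD24- replicate 3, and Efna4 (as deposited -0.18) 0.93 as TPM, 0.00 with array weights, 0.04 with a replicate block, 0.16 without irradiated CD24- replicate 3 and 0.11 and -0.46 without non-irradiated replicates 2 and 1.

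The scaling between libraries limits the comparisons of CD24- cells, since the median of all genes between the irradiated gates was 0.51 as deposited, 1.60 as TPM and -0.16 outside Paneth products. The lowest member value rests on about 81 reads, an approximation from the longest transcript, and the part of depth was not tested.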
